A study of Arabidopsis thaliana with 6 samples.

Results

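A set of 960 annotated introns of Arabidopsis thaliana was described that were spliced poorly in wild-type seedlings. Each was an intron bin with no annotated alternative splicing event of its own in the deposited junction table and with spliced reads averaging 5 or more per library in both genotypes. Each also had at least 15 boundary reads and a retained share of at least 20% in the 3 wild-type libraries summed. Boundary reads cross the junction of an exon and the intron, and spliced reads join the 2 flanking exons. Boundary reads come from unspliced RNA or from another transcript with an exon over that end, and the 2 sources were not separated. The retained share is the boundary reads at both ends divided by the same reads plus 2 times the spliced reads, in percent. The 960 introns lay in 824 genes and were taken from 91937 such introns with the spliced-read minimum. Those were among 92582 with all 3 junction counts and a single listed spliced junction. A further 9619 introns met the same read minimums with a wild-type share under 20% and are called the other introns.

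The samples were whole seedlings of prp40c-1, a mutant line that carries a T-DNA in PRP40C (AT3G19840), and of wild-type Col-0, the parental accession. Both genotypes were grown together in continuous white light at 22 °C and were described as 2 weeks old, with harvest after 10 to 14 days. Each genotype gave 3 biological samples, and each sample 1 poly(A)-selected RNA-seq library. PRP40C is a plant relative of yeast Prp40, a splicing factor of the U1 snRNP, and prp40c-1 was the only mutant allele sequenced.

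An intron is removed by the spliceosome, which recognises the donor site at its 5′ end, the acceptor site at its 3′ end and a branch point between them. In plants, an unspliced intron in a mature transcript is the commonest form of alternative splicing. A retained intron in coding sequence usually brings a premature stop codon, and many such transcripts stay in the nucleus or are degraded. A minority, called exitrons, are coding stretches inside an exon that are kept in most transcripts and removed in a few.

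The label constitutive did not hold for all members. In 688 of them the bin was named as an intron (I), and in 272 it was named Io, which by the coordinates marks introns that hold an annotated alternative exon part. The Io form made up 28.3% of the poorly spliced introns, 6.39% of the other introns and 3.03% of all 91937. Of the 960 junctions, 240 were also listed for another bin of the gene with an annotated alternative splicing event. The event types were not separated, so annotated intron retention can be among them. Other RefSeq transcripts of the same gene held an exon over the whole intron in 407 members (42.4%), against 1442 of the other introns (14.99%). No exon of another transcript of the gene reached either end in 359 members (37.4%), against 7501 of the other introns (78.0%).

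The extreme of the set is best read from the sequences. The intron sequences are from the TAIR10.1 genome of RefSeq, whose nuclear chromosomes match the TAIR10 coordinates of the files, and they run 5′ to 3′ on the strand of the gene. UBQ10 and UBQ14 encode polyubiquitin, a chain of ubiquitin units in tandem, and hold the 3 highest shares in wild type. The first bases of these introns are set beside the bases that follow the intron, because the 2 stretches are nearly alike.
UBQ10 Io004, chr4:2718774-2719001, plus strand, first 30 bases of the intron: gctccgtggtggtatgcagattttcgttaa
UBQ10 Io004, 30 bases after the intron: gctccgtggtggtatgcagattttcgttaa
UBQ10 Io003, chr4:2718912-2719367, plus strand, first 30 bases of the intron: gctgatcttcgccggaaagcagttggagga
UBQ10 Io003, 30 bases after the intron: attgatcttcgccggaaagcaacttgaaga
UBQ14 Io003, chr4:1279389-1279616, minus strand, first 30 bases of the intron: gtggaaagctctgacaccatcgacaacgtt
UBQ14 Io003, 30 bases after the intron: gtggagagttctgacaccatcgacaacgtc

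The first 20 bases of the intron matched the next 20 bases after it at 20 of 20 positions for UBQ10 Io004 and at 18 of 20 for the other two. At least 18 matches were found in 3 of the 960 members and in 1 of the 9619 other introns. The annotated introns were 228, 456 and 228 bases long, which is 1, 2 and 1 ubiquitin units, and none held a stop codon in frame. Because the units are near-identical, reads could be placed in more than 1 unit and the shares of these introns are uncertain.

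GRP-3 encodes a glycine-rich cell-wall protein, and its 2 members are shown whole because they are also coding repeat sequence. A further intron of the gene was not a member, with a share of 0.808% in wild type. Capitals mark the first and last 2 bases of the intron. They also mark, where there is one, the first stop codon after those first 2 bases in the frame of the upstream exon.
GRP-3 Io003, chr2:2026611-2026670, plus strand: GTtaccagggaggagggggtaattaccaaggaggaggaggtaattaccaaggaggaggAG
GRP-3 Io005, chr2:2026611-2026712, plus strand: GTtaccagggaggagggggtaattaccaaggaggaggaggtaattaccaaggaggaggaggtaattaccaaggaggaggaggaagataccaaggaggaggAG
The pair share a donor site and have lengths of 60 and 102 bases, multiples of 3 with no stop codon.

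Other members are shown for contrast, each with a stop codon in the frame of the upstream exon. They come from CEL5, a cellulase gene, AT3G63450, a gene for an RNA-binding protein, LIG6, a DNA ligase gene, BES1, the brassinosteroid transcription factor, and RVE8, a clock MYB gene whose intron begins with GC.
CEL5 I003, chr1:8096787-8096864, plus strand: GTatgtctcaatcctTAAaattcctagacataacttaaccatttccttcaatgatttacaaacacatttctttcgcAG
AT3G63450 I006, chr3:23427919-23427992, minus strand: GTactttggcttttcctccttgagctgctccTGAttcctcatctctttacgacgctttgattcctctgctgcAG
LIG6 I013, chr1:24890402-24890493, plus strand: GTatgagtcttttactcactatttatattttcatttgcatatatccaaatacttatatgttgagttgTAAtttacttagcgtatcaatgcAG
BES1 Io003, chr1:6688739-6688833, plus strand: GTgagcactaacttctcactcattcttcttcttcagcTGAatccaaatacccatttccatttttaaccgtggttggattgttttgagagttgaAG
RVE8 I004, chr3:2947404-2947521, plus strand: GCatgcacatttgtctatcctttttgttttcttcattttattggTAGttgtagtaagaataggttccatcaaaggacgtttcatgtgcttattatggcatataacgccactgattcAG

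The libraries held 34200225 to 40919516 reads counted on genes, so no library was much shallower than the rest. Leaf and root markers were present in every library: RBCS1A, a Rubisco gene, was between 11012 and 11392 CPM (reads scaled to library size) in prp40c-1 and between 12466 and 12547 CPM in wild type. PYK10, a root protein gene, was between 2246 and 2516 CPM in prp40c-1 and between 2141 and 2252 CPM in wild type. PRP40C itself had 11.8, 14.0 and 12.7 CPM in prp40c-1, against 24.6, 28.1 and 22.6 CPM in wild type, with no overlap (log2 fold change −0.97, edgeR quasi-likelihood test, adjusted p = 2.1e-05).

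The prp40c-1 libraries took no part in the share threshold and give the level of the same introns in other plants. In prp40c-1, 772 of the 960 introns (80.4%) had a share of at least 20%, and 570 did so in all 3 libraries. Of the 9619 other introns, 233 (2.42%) reached 20% in prp40c-1. The median share of the members was 31.8% in prp40c-1 and 30.8% in wild type. The medians of the other introns were 2.51% in prp40c-1 and 2.79% in wild type, and over all 91937 introns they were 0.128% and 0.125%. Library by library, the median of the members was 33.3%, 32.3% and 33.3% in prp40c-1 and 33.3%, 32.0% and 33.3% in wild type. The wild-type values chose the members and are given as a description.

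**Figure D1:**
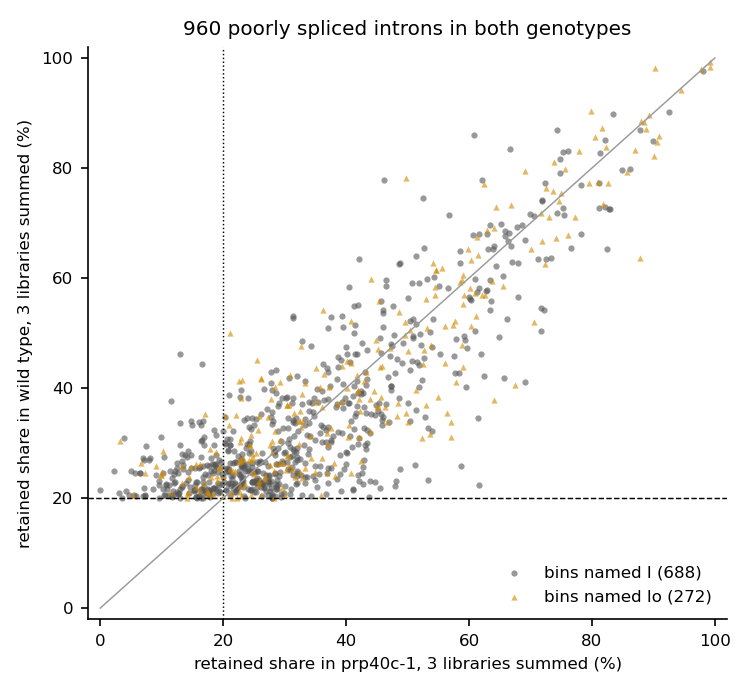
Retained share of each of the 960 introns in prp40c-1 (horizontal axis, percent, 3 libraries summed) and in wild type (vertical axis). Circles are the 688 bins named I and triangles the 272 named Io. The dashed line is the 20% threshold that wild type had to pass, the dotted line the same level in prp40c-1, which 772 introns reached, and the grey line marks equal shares.

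How often the level held depended on where the wild-type share lay. All 196 members with a wild-type share of at least 50% were above 20% in prp40c-1, and 166 of them were at 50% or more in both genotypes. Between 30% and 50% it was 284 of 302 members, and between 20% and 30% it was 292 of 462 (63.2%). Members with fewer than 30 wild-type boundary reads reached 20% in prp40c-1 in 77 of 138 cases (55.8%), and those with 100 or more in 334 of 366 (91.3%). The 3 members just inside the threshold were AT5G18640 I001, AT5G42830 I001 and AT5G51620 Io005, each at 20% in wild type. The 3 just outside were BGLU11 Io007 at 19.9%, AT1G67195 Io002 at 19.9% and AT4G27300 I002 at 19.8%.

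Single introns were measured less precisely than the set. The members had a median of 76 boundary reads in prp40c-1 and 75.5 in wild type over 3 libraries. The median SD of the share between libraries was 7.78 percentage points in prp40c-1 and 8.51 in wild type. The spliced reads were few as well, with a median of 64 in prp40c-1 and 63 in wild type. The other introns had 490 in prp40c-1 and 505 in wild type. The rule sets part of this contrast, since a share under 20% with 15 boundary reads needs more spliced reads. The lowest wild-type count was 32 in the other introns and 15 in members. The sets were not matched for depth or expression. The expression of the host genes, counted once per member, had a median of 25.1 CPM in prp40c-1 and 23.1 CPM in wild type, and for the other introns it was 47.9 CPM in prp40c-1 and 44.8 CPM in wild type.

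The introns with the highest wild-type shares came from a handful of well-expressed genes. UBQ10 Io004 was retained at 99.6%, 98.5% and 99.4% in prp40c-1, against 98.9%, 97.7% and 98.7% in wild type, and carried 16875 boundary reads in prp40c-1 and 19036 in wild type. UBQ10 Io003 had 98.8%, 99.6% and 99.2% in prp40c-1, against 99.4%, 99.2% and 99.4% in wild type. In both introns the genotypes overlapped. UBQ14 Io003 had 90.02%, 89.3% and 91.4% in prp40c-1, against 94.1%, 100% and 100% in wild type, and all 3 prp40c-1 libraries were lower. Its spliced reads numbered 25, 24 and 20 in prp40c-1, against 20, 0 and 0 in wild type, and the gene had 140.8 ± 5.60 CPM in prp40c-1 and 186.8 ± 9.35 CPM in wild type (SD, n = 3 each). These spliced reads join repeat units that the sequences above show to be alike.

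GLT1 encodes NADH-dependent glutamate synthase, an enzyme of ammonium assimilation. Its last intron of 20, Io020 (chr5:21709631-21709709, 79 bases, 3′ UTR), was retained at 98.3%, 98.3% and 96.6% in prp40c-1, against 98.0%, 98.1% and 97.9% in wild type. The BES1 intron Io003 stood at 92.5%, 94.5% and 96.4% in prp40c-1, against 96.0%, 93.5% and 93.4% in wild type. The shares of both introns overlapped between genotypes and another transcript of each gene reads through the whole intron. GRP-3 Io003 was at 86.2%, 100% and 83.5% in prp40c-1, against 83.3%, 93.2% and 85.6% in wild type. GRP-3 Io005 was at 83.9%, 78.7% and 76.5% in prp40c-1, against 100%, 94.7% and 83.4% in wild type, where 1 prp40c-1 library lay above the lowest wild-type library.

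**Figure D2:**
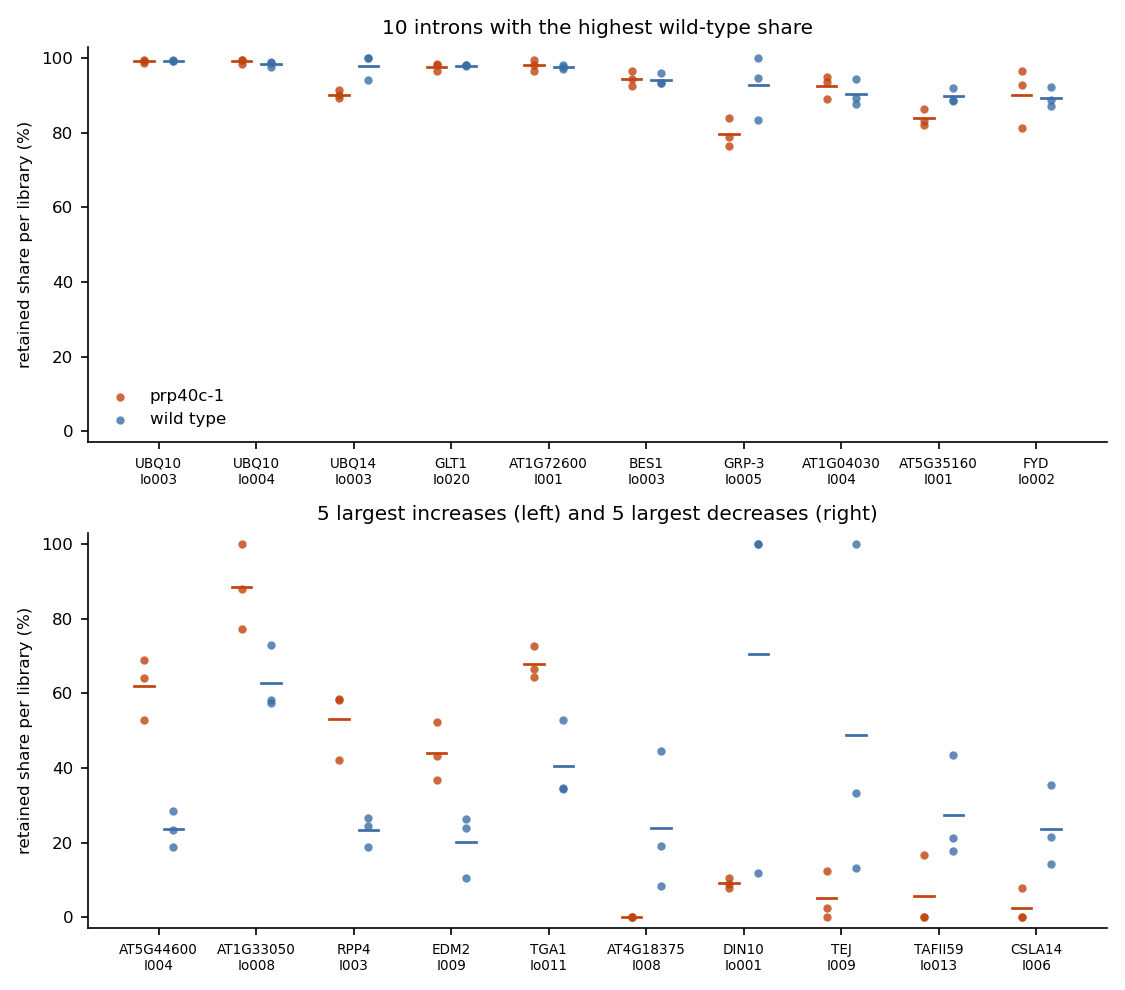
Retained share per library (vertical axis, percent) of the 10 introns with the highest wild-type share (upper panel) and of the 10 introns with the largest unadjusted changes in either direction (lower panel). For each intron the 3 prp40c-1 libraries are on the left and the 3 wild-type libraries on the right, and short lines are means. The upper introns lie between 76.5% and 100% in both genotypes, and in the lower panel the libraries of the 2 genotypes do not overlap.

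A pair of the 10 highest shares rested almost wholly on reads at 1 end. AT1G72600 I001 (chr1:27338738-27339186, 3′ UTR), in a gene for a hydroxyproline-rich glycoprotein, had 10 reads at its donor boundary and 4460 at its acceptor boundary in prp40c-1, and 14 and 3775 in wild type. AT1G04030 I004 (chr1:1042316-1042567, 3′ UTR) had 10 donor and 1867 acceptor reads in prp40c-1, and 13 and 1674 in wild type. Both introns overlap an exon of another gene at a boundary, and the library kit does not mark strand, so reads of the 2 genes cannot be told apart.

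Such an imbalance was common. A read count at 1 end more than 3 times that at the other was found in 315 members (32.8%) in prp40c-1 and in 315 in wild type, of which 264 were shared and all 264 leaned to the same side. Of the other introns, 2056 (21.4%) were unbalanced in prp40c-1 and 1656 (17.2%) in wild type. In wild type, 209 of the 315 members had the excess at the acceptor and 106 at the donor, and 53 members had no read at 1 end.

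In members the side went with the annotation of other transcripts, more clearly at the acceptor than at the donor. Which count was the donor's was settled from introns of this kind, so this match is partly built in and is no independent test. Among the introns used for that, an exonic acceptor end had more reads in 146 against 39 (plus strand) and 143 against 43 (minus strand). An exonic donor end had more in 116 against 98 (plus) and 84 against 91 (minus), so the donor side hardly followed there. Where an exon of another transcript covered the acceptor end alone, 62 of 90 members were unbalanced in wild type, 60 of them toward the acceptor. Where it covered the donor end alone, 37 of 75 were unbalanced, 28 toward the donor. With no exon at either end, 73 of 359 (20.3%) were unbalanced. For such introns a boundary read can come from the longer exon of another transcript as well as from an unspliced intron, and the 2 sources were not separated.

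**Figure D3:**
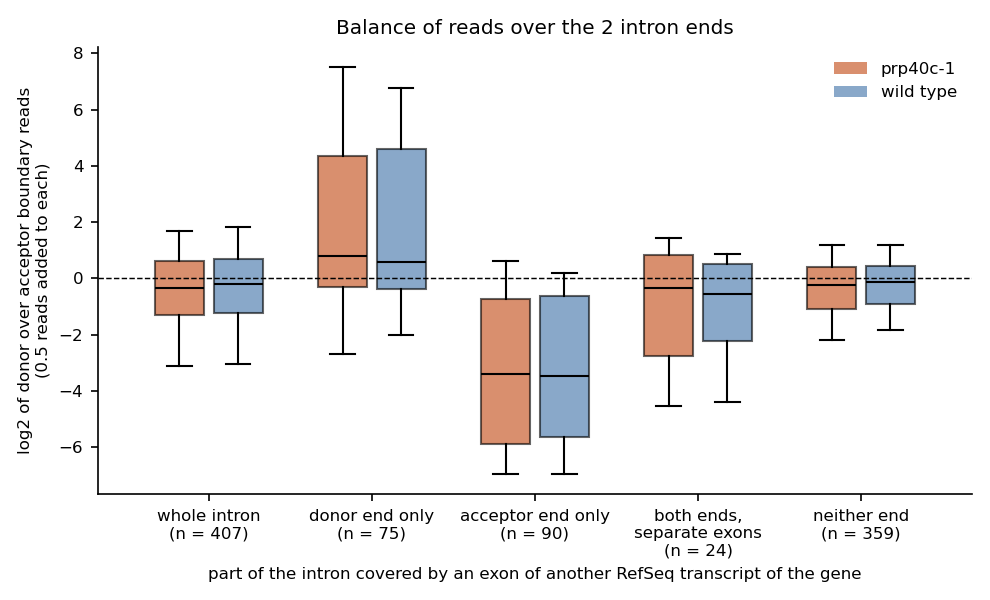
Log2 ratio of donor over acceptor boundary reads (vertical axis, 0.5 reads added to each) for members grouped by which part of the intron an exon of another RefSeq transcript of the gene covers, prp40c-1 left and wild type right in each pair. Boxes span the quartiles with the median, and whiskers run from the 10th to the 90th percentile. The boxes lie above 0 for the most part where the donor end is exonic (n = 75), below it where the acceptor end is (n = 90), and around it in the 407 and 359 members of the whole and neither groups.

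A stricter core was formed by members named I, with balanced ends, no exon of another transcript at either end and no overlapping gene. This held 259 introns, with a median share of 28.9% in prp40c-1 and 27.5% in wild type, and 199 of them reached 20% in prp40c-1. It was drawn after the values were seen and is a description.

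LUX shows the imbalance in a clock gene. LUX encodes the MYB-like DNA-binding subunit of the evening complex, and its intron I002 had 121 donor and 3 acceptor reads in prp40c-1, and 107 and 4 in wild type, with an annotated exon over the donor end. AT2G30766 I001 had 3270 donor and 66 acceptor reads in prp40c-1, and 5425 and 88 in wild type. In both introns the reads at 1 end made up nearly all of the boundary reads.

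By position, poorly spliced introns were spread unevenly over the transcript. In 614 members (64.0%) the intron lay in coding sequence, against 8919 of the other introns (92.7%). The 5′ UTR held 216 members (22.5%), against 4.90% of the other introns, and the 3′ UTR 90 members (9.38%), against 1.88%. The intron was the first of its transcript in 347 of 940 matched members (36.9%), against 20.1% of the other introns, and the last in 31.1%, against 30.6%. Members of the 3′ UTR had a median share of 42.0% in prp40c-1 and 39.2% in wild type. For coding members these medians were 30.4% in prp40c-1 and 28.9% in wild type.

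**Figure D4:**
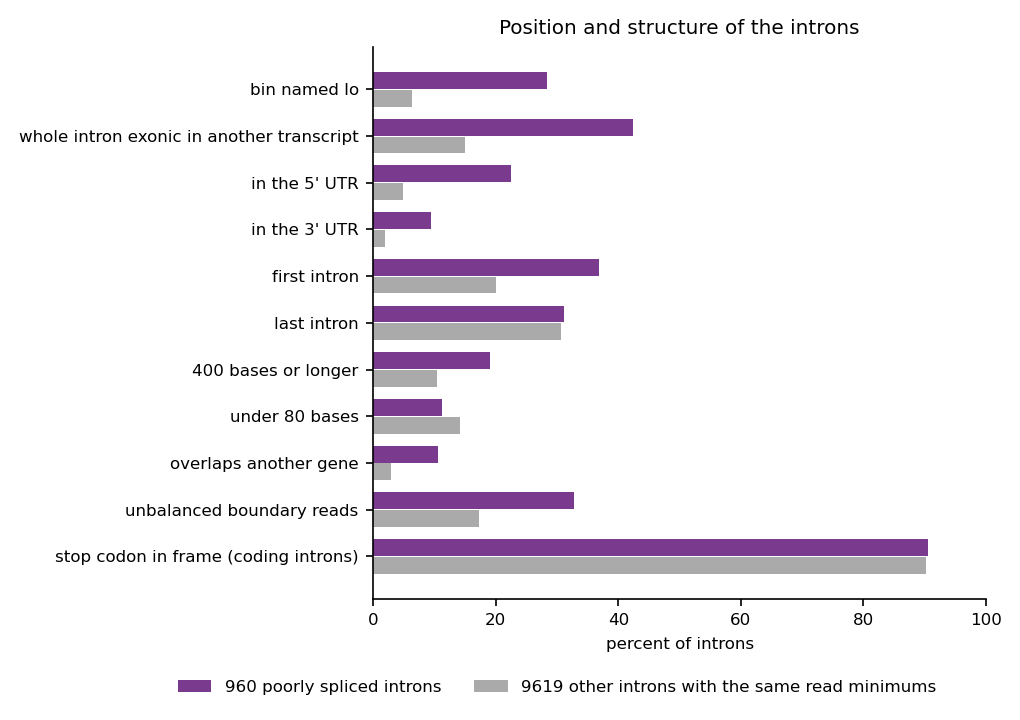
Percent of introns (horizontal axis) with each feature, for the 960 poorly spliced introns (upper bar of each pair) and the 9619 other introns with the same read minimums (lower bar). The stop codon bars are percent of coding introns, and the first and last intron bars percent of introns matched to a RefSeq transcript. The upper bar is longer for the Io form (28.3% against 6.39%), exonic introns, both UTRs and first introns, and nearly equal for last introns and stop codons.

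The members were longer, with a median of 148 bases and quartiles of 89.75 and 337, where the other introns had a median of 102 and quartiles of 85 and 206. Length differed within the set, at 120.5 bases for the 688 bins named I, and 237 for the 272 named Io. An intron of 400 bases or more was seen in 19.1% of members and 10.5% of the other introns. The GC content had a median of 33.9% in members and 33.0% in the other introns.

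Splice sites were scored against the base composition of all tested introns, as summed log2 ratios to equal base use. The median donor score was 6.78 in members and 7.12 in the other introns, and the median acceptor score was 7.63 and 8.13. The donor hexamer GTAAGT, read on the sense strand, began 65 members (6.77%) and 901 of the other introns (9.37%). Ends of GC and AG were found in 21 members (2.19%) and in 134 of the other introns (1.39%). The quartiles of both scores overlapped widely between the 2 sets, from 5.21 to 8.37 for the donors of members and from 5.52 to 8.65 for those of the other introns. UBQ10 Io004 had a donor score of −3.45, where the lowest among members was −6.77 in AT5G63460 I007. UBQ10 Io003 had the lowest acceptor score of the members, −9.17.

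Of the coding members, 556 of 614 (90.6%) held a stop codon in the frame of the upstream exon, against 90.3% of the other coding introns. A length that is a multiple of 3 with no stop, the structure of an exitron, was found in 12 of 614 members (1.95%), against 221 of 8919 of the other introns (2.48%). Besides the 3 ubiquitin and 2 GRP-3 introns these were in BGAL12, AT1G69450, AT4G16670, ABA3, SYD, AT3G29760 and ENDO4. ABA3 encodes the molybdenum cofactor sulfurase of abscisic acid synthesis, and its intron of 69 bases had a share of 16.5% in prp40c-1 and 30.6% in wild type. SYD encodes a SNF2-class chromatin remodelling ATPase, and its intron of 135 bases stood at 29.8% in prp40c-1 and 26.3% in wild type.

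In 706 host genes, at least 1 further intron outside the set had the spliced-read minimum. Pooled by gene, these non-member introns had a median share of 1.29% in prp40c-1 and 1.23% in wild type. Members were taken out first, so a low value is partly built in. A single member was found in 710 of the 824 genes, 2 members in 100, 3 in 11, and more in 3.

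The gene with most members was AT3G63450, with an RRM-type RNA-binding domain. All 7 of its 7 introns were members, with shares from 29.7% to 52.0% in prp40c-1 and from 30.5% to 58.4% in wild type. Its first intron had 61.7%, 34.2% and 32.4% in prp40c-1, against 53.7%, 62.7% and 60.0% in wild type, and its last 32.1%, 45.1% and 35% in prp40c-1, against 32.3%, 28.6% and 31.4% in wild type. The libraries of the genotypes overlapped in both introns, and gene expression was 15.6 ± 1.29 CPM in prp40c-1 and 15.3 ± 0.859 CPM in wild type (SD, n = 3 each).

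LIG6 showed a block of neighbours instead. Introns 12, 13 and 14 of 18 had shares of 36%, 39.3% and 34.2% in prp40c-1 and 39.4%, 53.1% and 47.7% in wild type. Intron 11 before the block was at 14.5% in prp40c-1 and 15.02% in wild type, and intron 15 after it had no boundary read in any library, against 81 spliced reads in prp40c-1 and 53 in wild type. CEL5 had members at introns 2, 3 and 4 of 4, with shares of 65.9%, 82.1% and 52.6% in prp40c-1 and 68.6%, 85.2% and 74.6% in wild type.

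BGAL12, a beta-galactosidase gene, had 6 members, and they lay in the downstream part of the gene. Introns 8, 12, 13, 14 and 17 of 17 were at 57.8%, 39.5%, 38.7%, 41.3% and 62.5% in prp40c-1, and at 42.8%, 51.1%, 45.6%, 54.9% and 42.1% in wild type. The sixth member, Io018, is another form of intron 11 and stood at 9.84% in prp40c-1 and 24.3% in wild type. Introns 1 to 6 had no boundary read in prp40c-1 and 3 in wild type. Alternative forms of 1 intron share boundaries, so 97 of the 960 members shared an end with another member, and 6 members, in AT3G25820 and AT3G25830, AT5G50550 and AT5G50650, and AT5G50565 and AT5G50665, had the same counts as their partner in all libraries.

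**Figure D5:**
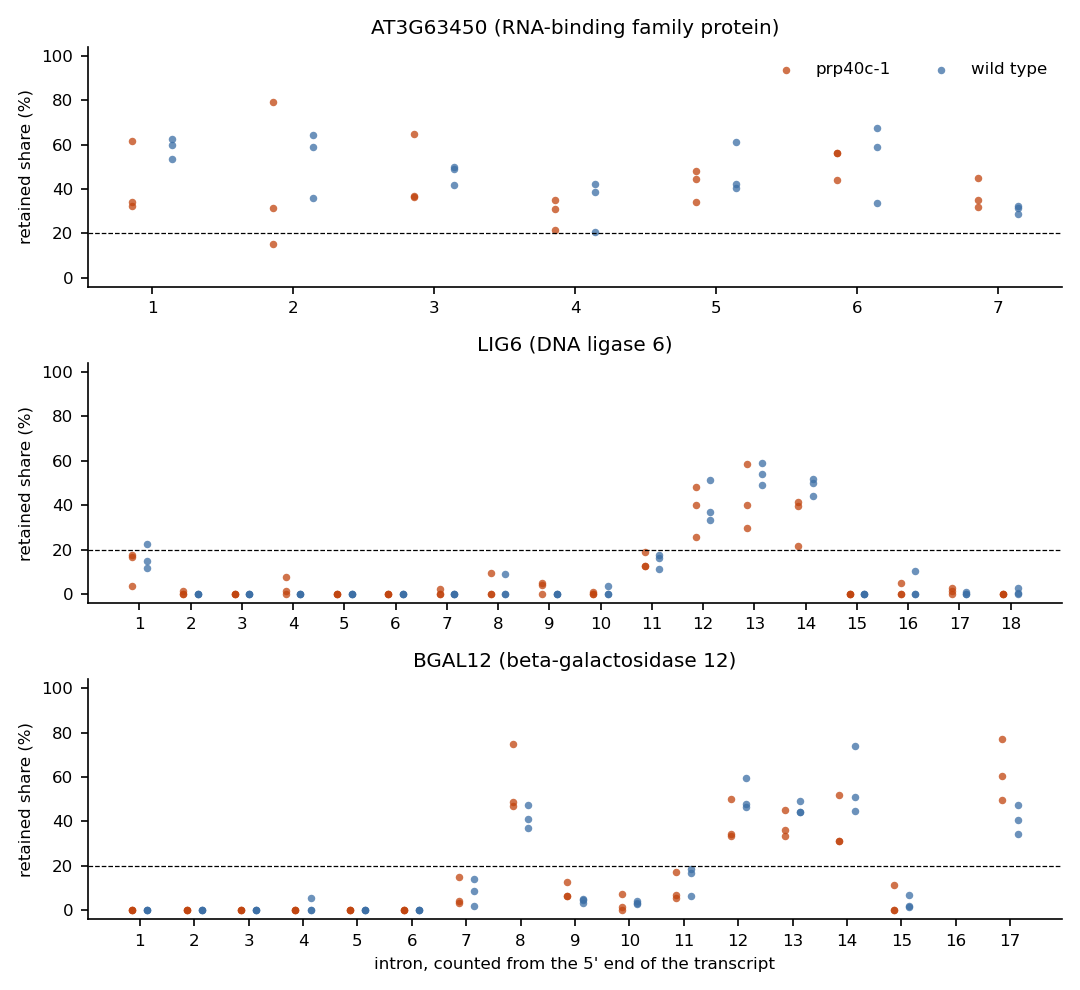
Retained share per library (vertical axis, percent) of each measured intron named I, in order from the 5′ end (horizontal axis), in AT3G63450, LIG6 and BGAL12. Points are single libraries, prp40c-1 left and wild type right, and the dashed line is 20%. All 7 introns of AT3G63450, introns 12 to 14 of LIG6 and 5 introns of BGAL12 had summed wild-type shares above the line.

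Genes for splicing factors held 14 members. Of a list of 36 splicing factor genes, 24 had introns that met the read minimums, 45 introns in all, of which 14 in 10 genes were members. SR proteins bind exon sequences and recruit the spliceosome. SR34b I012 had 80.2%, 80% and 87.5% in prp40c-1, against 73.8%, 65.5% and 59.0% in wild type, and the prp40c-1 libraries were higher throughout (log2 change of the boundary to spliced ratio 1.28, unadjusted p = 0.0824, adjusted p = 0.529, edgeR). SR34 I011 had 60.0%, 50.9% and 30.2% in prp40c-1, against 68.0%, 52.9% and 60.0% in wild type, and the genotypes overlapped. SCL33 had 2 members, which overlap and share an acceptor, so their shares are not independent. Their summed shares were 37.0% and 17.9% in prp40c-1 and 51.0% and 28.9% in wild type. The plant-specific RS proteins RS31a, RS40 and RS41 had 2 members each, and those of RS31a also overlap and share an acceptor.

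U2AF binds the pyrimidine tract before the acceptor. The large subunit genes U2AF65A and U2AF65B had introns at 37.5% and 38.7% in prp40c-1 and at 32.7% and 32.1% in wild type. SR45a Io003 stood at 36.2% in prp40c-1 and 54.1% in wild type, and RS2Z32 I006 at 12.2% in prp40c-1 and 25% in wild type. None of the 14 introns was called changed in edgeR, and neither was any of the 14756 tested introns. Among the 36 genes themselves, 1 was called lower in prp40c-1, PRP40C, and 0 higher, against 0.852% and 2.81% of all tested genes.

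Clock genes held 6 members in 6 of 20 listed genes. The GC intron of RVE8 had 31.2%, 18.97% and 25.4% in prp40c-1, against 17.8%, 32.2% and 25.3% in wild type, and the genotypes overlapped. The members in PRR7, a transcriptional repressor of the morning loop, and in RVE2, a MYB-like gene, stood at 21.9% and 21% in prp40c-1 and at 22.7% and 22.7% in wild type. Of the 20 genes, CCA1, LHY and LNK2 were called higher in prp40c-1 in edgeR, with log2 fold changes of 0.87, 0.62 and 0.73. PRR9 was called lower, with −0.63. Among all tested genes, 2.81% were called higher and 0.852% lower. Of these 4 genes, LNK2 held a member.

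The product names of the host genes were also counted. Words for RNA binding or splicing occurred in 32 of 824 host genes (3.88%), against 85 of 5498 genes with other introns (1.55%). Disease resistance was named in 12 host genes (1.46%), against 0.346%, and chloroplast or photosystem in 2 (0.243%), against 1.11%. The remaining word groups differed less. Kinases made up 7.40% against 5.49%, transcription factors 5.95% against 3.98%, and unknown or hypothetical proteins 4.61% against 3.67%. Transporters made up 2.79% against 3.00%, and ubiquitin or proteasome 3.52% against 3.75%.

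The chloroplast genome was singled out after its values were seen. It had 6 introns in the table, and 5 were members: petB, petD, atpF, clpP and ndhA, with shares of 50.4%, 41.4%, 32.8%, 41.9% and 59.3% in prp40c-1 and 34.1%, 32.6%, 48.5%, 39.0% and 48.8% in wild type. The sixth, in rpoC1, was at 25.9% in prp40c-1 and 18.7% in wild type. Chloroplast introns are removed by organelle factors and not by the spliceosome. Chloroplast transcripts are mostly not polyadenylated and had means of 3.46 to 13.1 CPM in prp40c-1 and 4.03 to 16.4 CPM in wild type for the 5 host genes.

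The change between genotypes was then tested, as a difference of the boundary to spliced ratio in edgeR over 14756 introns with all p-values adjusted together. The wild-type shares chose the members, so the direction of change is a description. All 960 members were tested and 0 were called at an FDR below 0.15, as were 0 of 14756 introns overall (0%). The smallest adjusted p of a member was 0.322. At an unadjusted p below 0.05, 14 members were higher and 21 lower in prp40c-1, against 7.18% higher and 3.36% lower among all tested introns. With DESeq2, 1 member was called higher and 3 lower, where 0.671% of all tested introns were called higher and 0.183% lower. The member called higher was AT5G44600 I004 (adjusted p = 0.103), and those called lower were DIN10 Io001 (adjusted p = 0.0942), AT4G18375 I008 (adjusted p = 0.133) and UBQ14 Io003 (adjusted p = 0.1499), all with DESeq2. In data simulated at the same depths, with changed introns drawn from all tested introns, the edgeR test recovered 44 of 100 changed 8-fold. Of those changed 4-fold it recovered 6 of 100, so 0 calls do not show that the introns were unchanged. Recovery among the members alone was not measured.

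The median fitted change over the members was −0.066 on the log2 scale, and over all tested introns 0.19. Computed from reads summed by genotype, with 0.5 reads added, the median over the members was −0.068. With the members chosen on all 6 libraries that median was 0.18, and chosen on prp40c-1 it was 0.37, so its direction turned with the libraries that set the threshold. The prp40c-1 libraries lay wholly above wild type in 53 members and wholly below in 79, against 11.6% and 5.97% of all tested introns.

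Named by the size of change among members with no overlap and an unadjusted p below 0.05, the changes furthest above wild type were these. AT5G44600 I004, in a methyltransferase family gene, had 69.1%, 64.2% and 52.9% in prp40c-1, against 23.4%, 28.6% and 18.7% in wild type (log2 change 2.43, unadjusted p = 0.00202, adjusted p = 0.322). Its gene had 8.92 ± 1.11 CPM in prp40c-1 and 11.9 ± 2.5 CPM in wild type (SD, n = 3 each). RPP4 encodes a TIR-NB-LRR receptor for downy mildew, and its intron I003 had 42.2%, 58.3% and 58.5% in prp40c-1, against 18.9%, 26.7% and 24.4% in wild type (log2 change 1.90, adjusted p = 0.349). Both introns were called when a mean of 10 reads was required, at adjusted p = 0.0894 and 0.113 in edgeR. That fit covered 6932 introns, of which 1.57% were called higher and 0.332% lower. The second member of RPP4 had a summed share of 53.3% in prp40c-1 and 32.8% in wild type.
AT5G44600 I004, chr5:17990691-17990781, plus strand: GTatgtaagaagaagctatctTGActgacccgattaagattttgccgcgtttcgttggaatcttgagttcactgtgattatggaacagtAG
RPP4 I003, chr4:9490379-9490478, minus strand: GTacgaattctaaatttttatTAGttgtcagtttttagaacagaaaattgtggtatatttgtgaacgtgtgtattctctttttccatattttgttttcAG
The pair are printed as the members called higher with that read minimum, with stop codons and ends in capitals as before, and their reads lay at both ends, at 44 donor and 120 acceptor reads in prp40c-1 for AT5G44600 and 94 and 184 for RPP4.

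The other 3 were in AT1G33050 Io008, EDM2 I009 and TGA1 Io011. EDM2 is needed for downy mildew resistance, and its intron had summed shares of 43.8% in prp40c-1 and 20.1% in wild type. TGA1 encodes a bZIP factor of the salicylic acid response, and its intron of 991 bases in the 5′ UTR stood at 67.5% in prp40c-1 and 40.5% in wild type. The adjusted p-values of the 3 were between 0.419 and 0.450.

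Of the 5 changes furthest below wild type, 4 rested on few boundary reads. AT4G18375 I008, in a gene for a KH-domain RNA-binding protein, had 0 boundary reads in each prp40c-1 library, against 8, 8 and 2 in wild type. It had 54 spliced reads in prp40c-1 and 33 in wild type. With 3 reads over the prp40c-1 libraries taken as the limit of a count of 0, its prp40c-1 share was at most 2.70%. The ratio at that limit was 9.82-fold below the measured wild-type ratio. That wild-type ratio rests on few reads and was chosen for being high, so 9.82 is no bound on the change. TEJ I009, CSLA14 I006 and TAFII59 Io013 had 3, 1 and 4 boundary reads in prp40c-1 and 17, 20 and 27 in wild type. TEJ encodes poly(ADP-ribose) glycohydrolase and TAFII59 a subunit of TFIID.

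DIN10, a raffinose synthase family gene induced in darkness, gave the remaining one in its 5′ UTR intron Io001. Its boundary reads were 44, 43 and 31 in prp40c-1, against 19, 22 and 16 in wild type, and its spliced reads 223, 185 and 186, against 0, 82 and 0. The spliced reads of this junction were absent from 2 of the 3 wild-type libraries, although the gene had 229.9, 242.2 and 304.7 CPM in wild type, against 395.8, 458.8 and 510.8 CPM in prp40c-1. The fitted log2 change was −3.54 (unadjusted p = 0.0298, adjusted p = 0.424, edgeR), and over the alternatives it ranged between −5.57 with DESeq2, which called it, and −2.34.

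Expression of the host genes was not used in the choice and was tested over 22182 genes. Of 824 host genes, 30 were called higher in prp40c-1 (3.64%) and 1 lower (0.121%), at an FDR below 0.05 and a log2 fold change beyond 0.58. Over all tested genes, 3.67% were called, 2.81% higher and 0.852% lower. The median log2 fold change of the host genes was 0.08, against −0.00 over all genes. With genes counted once per intron, it was 0.080 for the members and 0.036 for the other introns. In whole seedlings, more cells of a type and more RNA per cell cannot be told apart. The leaf genes RCA and CA1 had log2 fold changes of −0.25 and −0.33 and LHCB1.1 one of 0.32, and their part in the host gene values was not tested. AT1G17990 and AT1G18020, near-identical genes with log2 fold changes of 0.83 each, count as 2 of the 30.

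The host genes that rose most were TCH3 and IAA29. TCH3 encodes a touch-induced calmodulin-like protein, with 297.7, 393.1 and 469.6 CPM in prp40c-1, against 81.9, 83.2 and 92.1 CPM in wild type (log2 fold change 2.17, adjusted p = 4.7e-08, edgeR). Its member Io005 had a share of 28.3% in prp40c-1 and 24.96% in wild type. IAA29 encodes an Aux/IAA repressor of auxin signalling, with 12.9, 11.9 and 14.5 CPM in prp40c-1, against 2.83, 3.10 and 3.85 CPM in wild type (log2 fold change 2.00, adjusted p = 4.5e-07, edgeR). Its intron stood at 14.2% in prp40c-1 and 24.8% in wild type.

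The dark-inducible gene SEN1 rose as well, with 106.0, 112.9 and 157.3 CPM in prp40c-1, against 39.3, 30.2 and 53.4 CPM in wild type. ACBP3, an acyl-CoA-binding protein gene, rose by 1.097 on the log2 scale, AKINBETA1, a subunit gene of the SnRK1 energy-sensing kinase, by 0.94, and PIL6 and PIF3, genes for phytochrome-interacting factors, by 0.83 and 0.59. PIF3 lies near the threshold of 0.58, with 0.52 when wild type replicate 1 or prp40c-1 replicate 3 was left out, and its intron in the 5′ UTR had 3, 7 and 1 boundary reads in prp40c-1. The clock coactivator gene LNK2 (AT3G54500) rose by 0.73. The single gene called lower was AT1G01910, with 44.3, 49.7 and 47.5 CPM in prp40c-1, against 96.8, 97.6 and 110.5 CPM in wild type (log2 fold change −1.11), and its 3′ UTR intron Io009 stood at 82.3% in prp40c-1 and 83.8% in wild type. The retained share of this intron overlapped between genotypes where the level of its gene did not.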

How the data were processed

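RNA-seq reads of 3 prp40c-1 and 3 wild-type libraries (TruSeq, poly(A)) were mapped by the authors to TAIR10 with TopHat2 2.1.1, with SAMtools 1.3 also in the submitters' processing notes, and counted per gene and per junction with R scripts. The deposited values were counts: reads per gene, and reads over each intron's boundaries (J1, J2) and spliced junction (J3). The deposited table also held pooled retention values as a fraction (authors' values), which the shares computed here matched. Columns of the authors' own comparisons (fold changes, p-values) were not used.

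Introns were kept and shares computed as stated in the report, and bins listed with more than 1 spliced junction were left out. J1 was the boundary at the lower coordinate on both strands, settled from introns with an exon over 1 end. Sequences, transcripts and positions came from RefSeq (TAIR10.1), where 98.9% of 93901 introns began with GT and ended with AG. Boundary and spliced counts (means of at least 5) were tested with edgeR 4.0.16 (quasi-likelihood; library, read type and read type by genotype), and gene counts (mean of at least 10 in 1 genotype) with TMM, in R 4.3.3, with Benjamini-Hochberg adjustment over all introns or genes. Intron calls needed an FDR below 0.15, gene calls an FDR below 0.05, both a log2 change beyond 0.58. The tests were tested on simulated data: the gene test recovered 83 of 100 genes changed 2-fold. DESeq2 1.42.0, other filters, a replicate block and leaving out each library were alternatives. Bounds on counts of 0 cover counting error only.

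Named introns were the 10 highest by wild-type share, the 10 with most boundary reads, the 5 largest changes each way, 3 on each side of the threshold, those of the 5 hosts with most members, of called hosts, and of the splicing factor and clock lists. The members and lists were chosen with earlier results of these data known. Sequences shown were chosen from these after their values were known.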

Additional observations from a re-analysis of the deposited data

How the results depend on the processing

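The threshold set the size of the group. With a share of at least 0.30, 498 introns met the rule, 480 of them at 0.20 or more in prp40c-1, with a median prp40c-1 share of 46.1%. The median was 25.7% at 0.15, 34.6% with at least 30 boundary reads, 33.3% when all 6 libraries chose the introns, 30.6% over 637 members with reads at both ends that differed by less than 3-fold (509 at 0.20 or more) and 30.1% over those named I, a subset chosen after seeing the data. The median log2 change was 0.18 and 0.37 when all 6 or the prp40c-1 libraries chose the introns. Leaving out 1 library gave 900 to 960 introns, 716 to 764 of them at 0.20 or more in prp40c-1, medians of 31.7% to 32.6%, and log2 changes of −0.15 (without wild type replicate 2) to −0.065. The intron test called 2 members with a mean of 10 reads, 4 with DESeq2 and 0 in every fit without 1 library. Host calls were 128 without the fold threshold (15.5% of hosts, against 11.2% of all genes) and 27 to 39 without 1 library (3.28% to 4.73% of hosts, against 2.55% to 4.14% of all genes). PIF3, AT1G13650, AT1G34340, AT1G74330, AT2G25460, AT3G50560, AT4G20830, AT5G25440 and GDPD2 lost their call in at least 1 alternative, most often without 1 library, and no named change reversed. The replicate block called 0 members and 31 host genes. Replicate numbers did not pair the libraries, since deviations of same-numbered libraries correlated at −0.00248 to 0.00486 for the ratio and −0.0103 to 0.0699 for CPM. Depth limits single introns: 138 of 960 had fewer than 30 wild-type boundary reads.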
